A study of Mus musculus with 14 samples.

Results

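Wnt ligands, their Frizzled receptors and the genes around them were followed in 3 cell populations sorted from chronically injured mouse livers. The members were 57 of the 20377 gene symbols in the table: 19 Wnt ligands, 10 Frizzled receptors and 28 genes chosen by name, which are co-receptors, R-spondins and their receptors, intracellular transducers, transcription factors, target genes and secreted inhibitors. Of the 57, 36 reached at least 1 RPKM (reads scaled to transcript length and to sequencing depth) in at least 4 libraries and were tested, and 21 did not.

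All animals were C57BL/6 mice that received 0.1% DDC, a porphyrin-inducing toxicant that provokes bile duct proliferation, over 5 to 8 weeks, and no uninjured group was analysed. The mice were chimeras in which mature hepatocytes carried a red fluorescent marker, mTomato. Sample titles call the hepatocyte-derived ductal cells donor-derived and the cholangiocyte-derived ones host-derived. Between the ductal groups, cell of origin and donor or host animal therefore cannot be told apart. Hepatocyte-derived ductal cells (5 libraries) were positive for the ductal antigen MIC1-1C3 and for the red marker, had low side scatter and lacked CD11b, CD26, CD31 and CD45. Cholangiocyte-derived ductal cells (5 libraries) passed the same gate but lacked the red marker, so this group is defined by the absence of a label. Hepatocytes of the injured livers gave 4 libraries. The labels do not say which libraries come from which animals, so p-values measure the spread between these samples, which may be technical.

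Secreted Wnt proteins bind a Frizzled receptor together with Lrp5 or Lrp6, which stops the complex of Axin and Apc from marking beta-catenin for degradation, and beta-catenin then acts in the nucleus with Tcf and Lef factors. R-spondins amplify the signal through Lgr receptors by withdrawing the ligases Rnf43 and Znrf3, which remove Frizzled from the cell surface, while other Wnt signals act through Ror and Ryk receptors without beta-catenin. In the liver, Wnt2, Wnt9b and Rspo3 from endothelial cells around the central vein are known to maintain pericentral hepatocyte genes, and Wnt7a, Wnt7b and Wnt10a have been described in ductal cells.

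The sorted populations were checked against marker genes. Summed over 8 biliary markers, levels were 17030 to 19800 RPKM for hepatocyte-derived cells, 20550 to 22180 for cholangiocyte-derived cells and 609 to 1426 for hepatocytes. Spp1 made up most of these sums, at 16080 to 18846 RPKM in hepatocyte-derived and 17997 to 19491 in cholangiocyte-derived cells. The keratins Krt19 and Krt7 and the adhesion protein Epcam did not overlap between the ductal groups. Krt19 stood at 23.4 to 81.8 RPKM in hepatocyte-derived and 588 to 743 in cholangiocyte-derived cells, Krt7 at 17.6 to 62.6 and 214 to 385, and Epcam at 60.8 to 136 and 501 to 633. Of the 8 markers 4 were called lower in hepatocyte-derived than in cholangiocyte-derived cells. Summed over 8 hepatocyte markers they were 5690 to 10830, 3406 to 4827 and 49120 to 67860 RPKM in the same groups, with no marker of either list at 0 in any library. Transcripts of other cell types were also present. The 8 endothelial markers summed to 175.6 RPKM in hepatocyte library 118, against 2.77 to 11.3 in the other hepatocytes, and to 96.9 and 58.5 in cholangiocyte-derived libraries 118 and 220, against 4.04 to 39.3 in the other cholangiocyte-derived libraries. Among hepatocyte-derived libraries they summed to 1.17 in library 219 and to 19.3 to 33.3 in the others. Macrophage markers stood at 1146, 353 and 242 RPKM in the same 3 libraries, against at most 202 RPKM in any other. The 8 stellate and fibroblast markers other than Rgs5 summed to 139, 394 and 453 RPKM in these libraries. Every cholangiocyte-derived library lay above every hepatocyte-derived one in this sum, at 31.3 or more against 8.00 to 25.2 RPKM. The 8 stellate markers that passed the filter included Rgs5 and not Lrat. Of these, 6 were called lower in hepatocyte-derived than in cholangiocyte-derived cells and 1, Rgs5, higher. Apart from Rgs5, these differences run the same way as the 18 members that were lower in hepatocyte-derived cells. Without the 3 libraries, 33 members were tested, of which 4 were higher and 14 lower in hepatocyte-derived cells, against 14.9% and 20.5% of all genes. The remaining cholangiocyte-derived libraries still had the higher stellate sums, and the part of such cells in either count was not tested. In contrast, Rgs5 alone reached 953 to 1613 RPKM in hepatocyte-derived ductal cells. Rgs5 was set apart after its values were seen. In sorted bulk samples a smaller share of such cells and less RNA per cell cannot be told apart.

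The promoters of 5 genes are shown as examples, picked after the values were seen: Wnt4 and Wnt7a, ligands of both ductal groups, Fzd10 and Fzd7, receptors higher in hepatocyte-derived than in cholangiocyte-derived ductal cells, and Sp5, a beta-catenin target near the detection limit. Sequences are RefSeq, build GRCm38.p6 (the expression table uses mm9), 250 bases before to 50 after the start of the gene, 5′ to 3′ on the gene's strand. Capitals mark the words searched on either strand, which Tcf and Lef factors bind: the word CTTTGAA, the word CTTTGAT, the word CTTTGTA and the word CTTTGTT.
Wnt4 promoter, chr4:137277385-137277684, plus strand: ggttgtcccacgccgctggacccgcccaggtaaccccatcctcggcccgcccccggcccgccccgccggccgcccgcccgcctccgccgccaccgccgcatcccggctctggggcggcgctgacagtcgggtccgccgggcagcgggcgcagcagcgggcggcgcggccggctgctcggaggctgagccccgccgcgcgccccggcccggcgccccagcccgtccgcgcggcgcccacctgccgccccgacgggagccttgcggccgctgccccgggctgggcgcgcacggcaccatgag
Wnt7a promoter, chr6:91411304-91411603, minus strand: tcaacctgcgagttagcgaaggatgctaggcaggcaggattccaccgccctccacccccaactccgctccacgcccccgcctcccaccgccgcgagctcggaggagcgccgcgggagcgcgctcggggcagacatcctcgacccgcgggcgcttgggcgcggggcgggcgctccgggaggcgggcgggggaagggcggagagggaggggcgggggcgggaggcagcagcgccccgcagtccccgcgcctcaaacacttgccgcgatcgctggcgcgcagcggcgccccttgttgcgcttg
Fzd7 promoter, chr1:59481897-59482196, plus strand: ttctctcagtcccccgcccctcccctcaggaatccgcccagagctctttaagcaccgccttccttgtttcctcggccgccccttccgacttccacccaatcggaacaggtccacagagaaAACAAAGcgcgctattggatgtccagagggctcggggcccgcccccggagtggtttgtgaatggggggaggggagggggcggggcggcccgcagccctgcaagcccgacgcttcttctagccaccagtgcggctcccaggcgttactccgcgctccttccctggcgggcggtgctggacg
Fzd10 promoter, chr5:128600856-128601155, plus strand: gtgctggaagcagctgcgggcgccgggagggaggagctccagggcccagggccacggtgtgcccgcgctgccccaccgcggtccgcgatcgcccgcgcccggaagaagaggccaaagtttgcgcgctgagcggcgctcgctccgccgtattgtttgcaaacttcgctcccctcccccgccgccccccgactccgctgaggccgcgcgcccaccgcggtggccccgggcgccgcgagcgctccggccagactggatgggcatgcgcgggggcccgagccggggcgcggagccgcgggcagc
Sp5 promoter, chr2:70474673-70474972, plus strand: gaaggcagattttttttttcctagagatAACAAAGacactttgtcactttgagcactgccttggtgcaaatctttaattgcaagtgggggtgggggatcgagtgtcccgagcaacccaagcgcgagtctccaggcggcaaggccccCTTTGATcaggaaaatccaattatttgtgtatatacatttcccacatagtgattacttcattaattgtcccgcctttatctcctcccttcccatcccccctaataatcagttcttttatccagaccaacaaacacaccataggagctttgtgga

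The Fzd7 window held 1 such word and the Sp5 window 2, while the Wnt4, Wnt7a and Fzd10 windows held none, which says only that these letters are not in these 300 bases. Of the 57 members 38 had an entry, with 48 promoters, of which 8 (16.7%) held such a word, against 16.9% of all 32851 promoters. Wnt7b was among the members without an entry. The windows of the members were rich in G and C, with a median of 67.5%, against 52.7% over all promoters. The 50 bases after the start of Fzd7 were not found in a GENCODE vM21 transcript of the gene.

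Hepatocyte-derived ductal cells were first set against hepatocytes, their cells of origin by the marker. Of the 36 tested members, 29 were higher, 2 lower and 5 not called at an adjusted p under 0.05 (limma on log2(RPKM + 1), adjusted over all 12638 tested genes). This count has to be read against the whole table, in which 81% of genes were called, 66.2% higher and 14.8% lower. The median log2 fold change was 1.11 over the members and 0.67 over all genes, and 25 of the 36 members lay above the median of all genes. When libraries were rescaled by their median ratios, 25 of 35 members were higher and 7 lower, against 43% and 31.4% of all genes, and the median of all genes was 0.14. Quantile normalization gave 19 higher and 8 lower, against 38% and 31.2% of all genes, with a median of all genes of 0.06.

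Cholangiocyte-derived ductal cells differed from hepatocytes in 28 members that were higher and 2 that were lower, against 67.1% and 17.4% of all genes (84.4% in either direction). Their median was 1.24, against 0.76 over all genes. Rescaling gave 24 higher and 7 lower, against 46.8% and 32.4% of all genes (median 0.22). Quantile normalization gave 21 and 9, against 39.8% and 36.6% of all genes (median 0.03). This comparison shares its hepatocyte libraries with the one before, so the 2 sets of values are given side by side and not as independent evidence. Between the ductal groups, 4 members (Fzd10, Fzd7, Rnf43 and Sfrp1) were higher in hepatocyte-derived cells, 18 were lower and 14 were not called, against 15.1% and 21% of all genes (36.2% in either direction). The median was -0.33 over the members and -0.03 over all genes, and 28 of the 36 lay below the median of all genes. Rescaling gave 4 higher and 17 lower, against 15.2% and 20.9% of all genes, and quantile normalization 6 and 14, against 23.6% and 18.7%. Fzd10 and Sfrp1 would not have passed the filter without the hepatocyte-derived libraries, nor Fzd2 and Fzd9 without the cholangiocyte-derived libraries. Their calls are therefore not independent of the filter. In the fit with no filter all 36 members kept their direction and side of the threshold between the ductal groups.

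**Figure D1:**
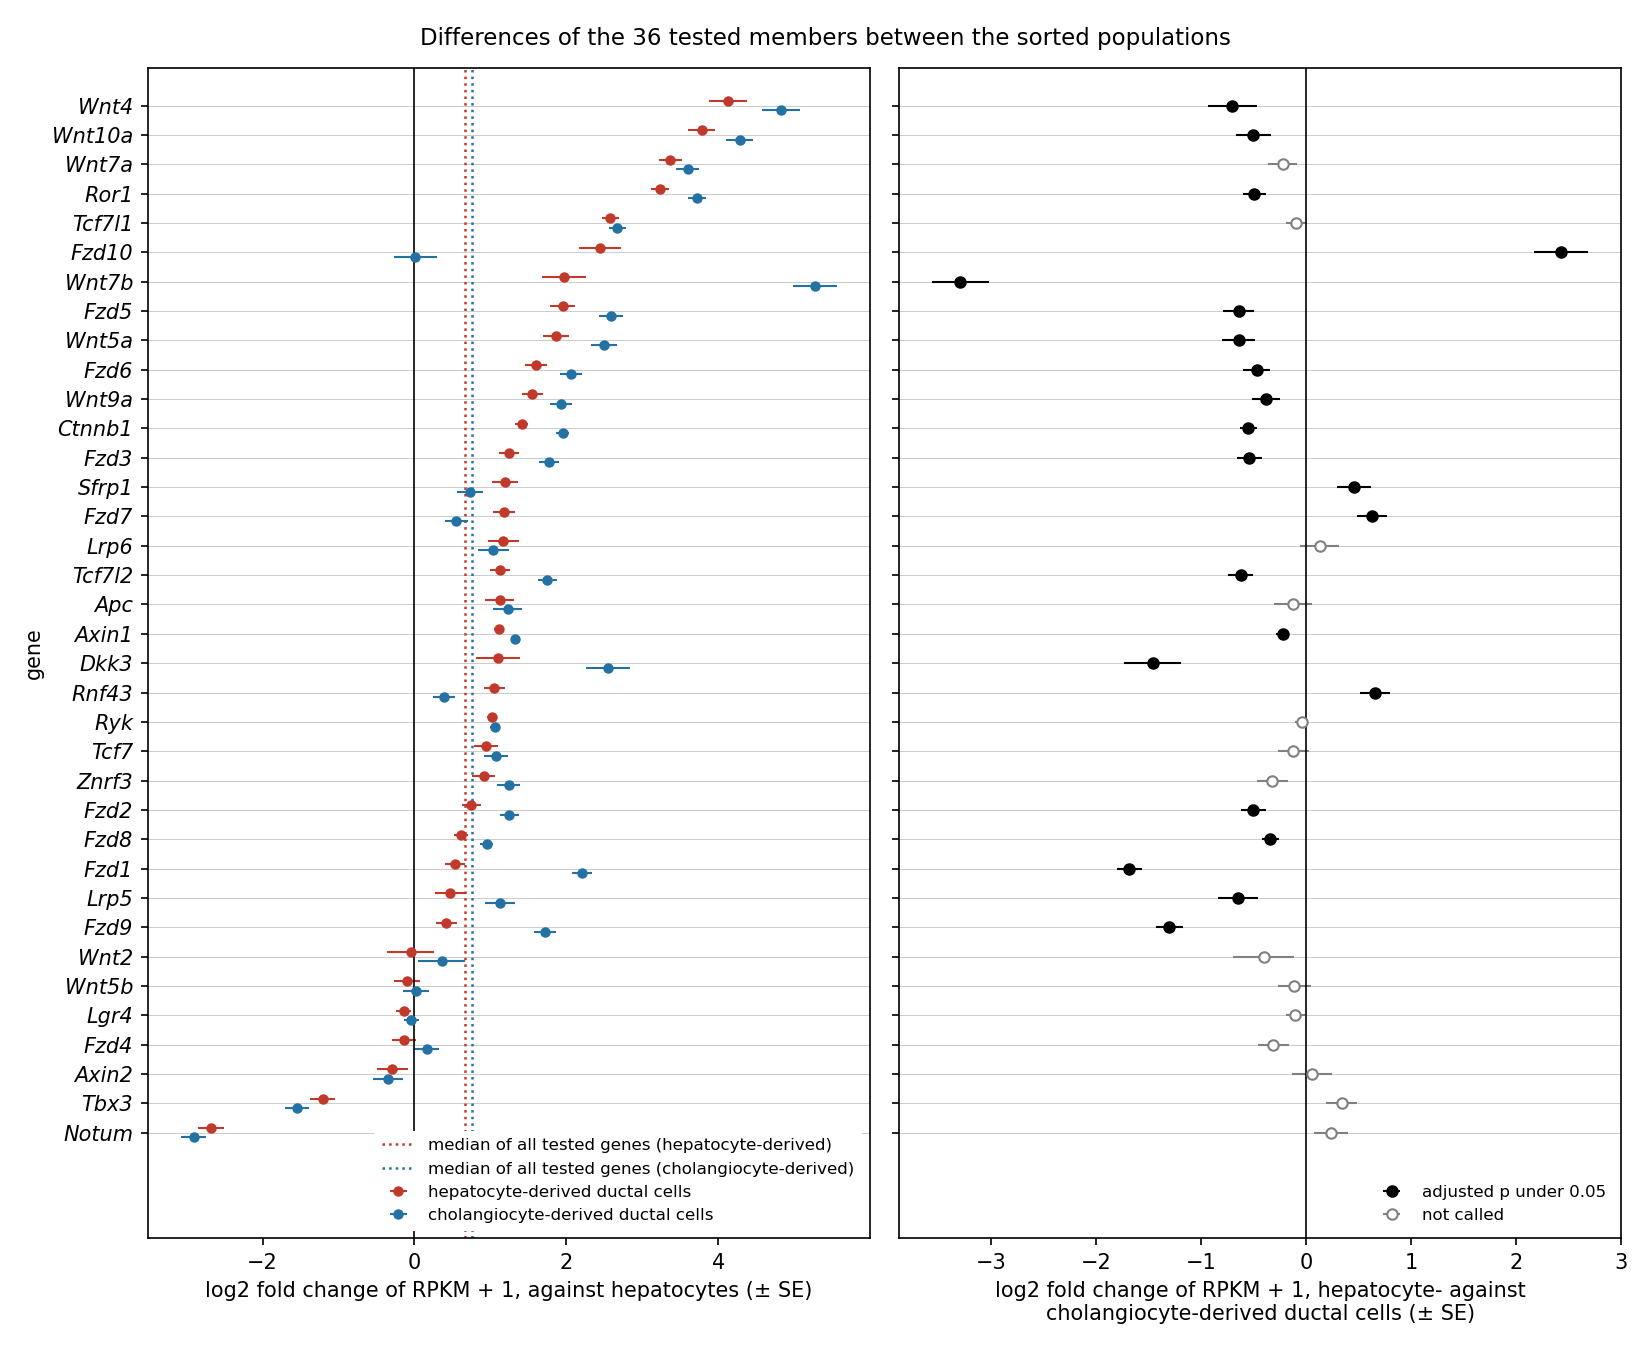
Log2 fold changes of RPKM + 1 with their standard errors for the 36 tested members. The left panel sets hepatocyte-derived ductal cells (red) and cholangiocyte-derived ductal cells (blue) against hepatocytes, with dotted lines at the medians of all tested genes (0.67 and 0.76). The right panel sets hepatocyte-derived against cholangiocyte-derived ductal cells, where Fzd10 (2.43) and Wnt7b (-3.29) lie at the ends.

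Among the ligands, the summed level of all 19 Wnt genes was 71.5 ± 7.12 RPKM (SD) in the 5 hepatocyte-derived libraries, 138 ± 8.07 in the 5 cholangiocyte-derived libraries and 8.55 ± 4.20 in the 4 hepatocyte libraries, and later means carry their SD over the same numbers of libraries. In each ductal group 7 ligand genes had a mean of at least 1 RPKM, against 1, Wnt5b, in hepatocytes.

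Wnt7b showed the largest difference between the ductal groups. Wnt7b, a ligand of branching epithelia (NM_009528, mm9 chromosome 15, 85365867 to 85412251, minus strand), stood at 4.50, 3.19, 1.80, 1.99 and 8.27 RPKM in hepatocyte-derived libraries 219, 220, 225, 248 and 611, at 46.4, 38.3, 38.8, 49.0 and 42.7 in cholangiocyte-derived libraries 118, 219, 220, 225 and 611, and at 0.61, 0.01, 0.02 and 0.01 in hepatocyte libraries 118, 225, 248 and 611. The 3 groups did not overlap, and library 611 was highest among the hepatocyte-derived ones. The mean was 3.95 ± 2.65 in hepatocyte-derived and 43.1 ± 4.66 in cholangiocyte-derived ductal cells, so it was 10.9-fold higher in the cholangiocyte-derived cells (log2 fold change -3.29 ± 0.27 SE, adjusted p = 2.91e-07, and 1.49e-09 to 2.27e-04 over the alternatives). Against hepatocytes it was higher in hepatocyte-derived cells (1.97 ± 0.29, adjusted p = 1.56e-05). The hepatocyte mean rested on library 118, and the other hepatocyte values correspond to about 1 read or a few.

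Wnt4 was the most abundant ligand of hepatocyte-derived ductal cells. Wnt4, which acts in epithelial tubule formation in kidney (NM_009523, chromosome 4, 136833550 to 136852694, plus strand), stood at 27.0, 22.8, 34.7, 30.1 and 13.0 RPKM in hepatocyte-derived libraries, at 40.7, 39.3, 42.8, 39.8 and 37.4 in cholangiocyte-derived libraries and at 1.32, 0.18, 0.36 and 0.16 in hepatocytes, in the library order given for Wnt7b, which is kept below. Both ductal groups lay above every hepatocyte library, with log2 fold changes of 4.13 ± 0.25 (adjusted p = 1.66e-09) in hepatocyte-derived and 4.83 ± 0.25 (1.81e-10) in cholangiocyte-derived ductal cells. The ductal groups did not overlap either (-0.70 ± 0.23, adjusted p = 0.0292), but this difference was no longer called when library 220 or 611 of the hepatocyte-derived cells, or 118, 220 or 225 of the cholangiocyte-derived cells, was left out (adjusted p = 0.0517 to 0.0614), and with the sample number as a block (0.143).

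Wnt10a and Wnt7a followed. Wnt10a, a ligand of skin appendages and teeth, stood at 17.2, 11.8, 11.8, 10.4 and 21.8 RPKM in hepatocyte-derived libraries, at 20.6, 24.6, 20.1, 20.2 and 16.7 in cholangiocyte-derived libraries and at 0.30, 0.02, 0.04 and 0.04 in hepatocytes. Both ductal groups were higher than hepatocytes (3.78 ± 0.18 and 4.28 ± 0.18, adjusted p = 2.26e-10 and 3.04e-11), and the ductal groups overlapped. The difference between them (-0.50 ± 0.17, adjusted p = 0.0332) was no longer called without any 1 of hepatocyte-derived libraries 220, 225 and 248 or cholangiocyte-derived libraries 118, 219, 220 and 225 (0.0575 to 0.0902), nor with the block (0.246). Wnt7a, whose promoter is shown above, averaged 11.96 ± 1.90 RPKM in hepatocyte-derived, 14.3 ± 2.98 in cholangiocyte-derived cells and 0.243 ± 0.0892 in hepatocytes. It was higher in both ductal groups than in hepatocytes (3.37 ± 0.15 and 3.60 ± 0.15, adjusted p = 7.72e-11 and 1.89e-11) and was not called between them (-0.22 ± 0.14, 0.233).

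Wnt5a and Wnt9a had lower levels in the same order. Wnt5a, a ligand known for signalling without beta-catenin, averaged 4.89 ± 1.30 RPKM in hepatocyte-derived, 8.12 ± 1.46 in cholangiocyte-derived cells and 0.603 ± 0.201 in hepatocytes, with log2 fold changes of 1.86 and 2.50 against hepatocytes and of -0.64 ± 0.16 between the ductal groups (adjusted p = 0.00503, and 0.0572 under quantile normalization). Wnt9a averaged 3.28 ± 0.506, 4.62 ± 0.908 and 0.460 ± 0.157 RPKM in these groups. Its difference between the ductal groups (-0.38 ± 0.13, adjusted p = 0.0310) was lost without any 1 of 8 libraries (0.0531 to 0.0746) and with the block (0.0768), while its rise over hepatocytes was called in both (1.55 ± 0.14 and 1.93 ± 0.14, adjusted p = 8.86e-08 and 5.70e-09). Wnt5b averaged 4.85 ± 0.748, 5.31 ± 0.508 and 5.47 ± 2.23 RPKM and was not called in any comparison (adjusted p = 0.605, 0.932 and 0.627). After rescaling it was lower in both ductal groups than in hepatocytes (-0.65 and -0.53, adjusted p = 0.00331 and 0.0107).

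**Figure D2:**
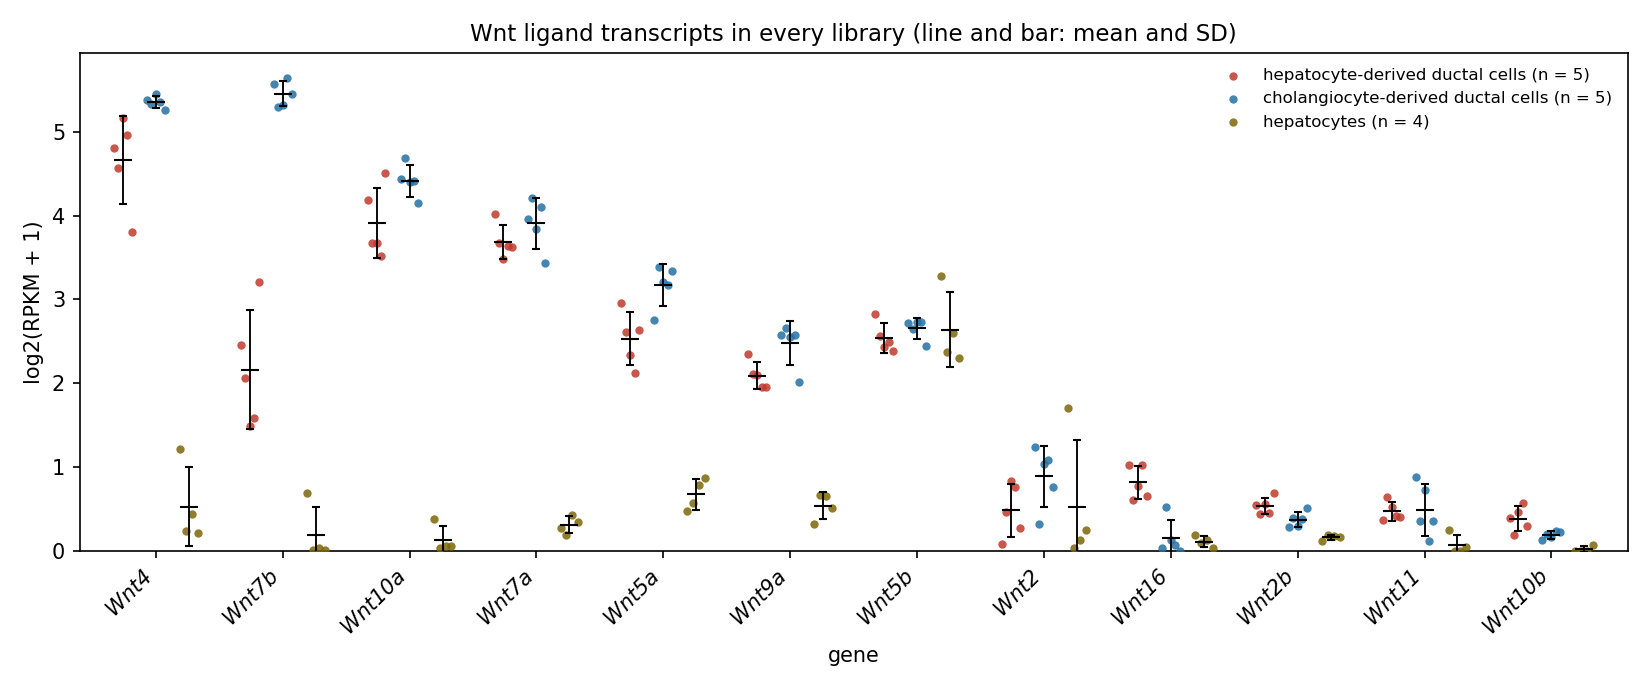
Levels of the 12 Wnt ligands with a group mean of at least 0.3 RPKM, as log2(RPKM + 1) in every library, with hepatocyte-derived ductal cells left, cholangiocyte-derived ductal cells in the middle and hepatocytes right of each gene. Lines and bars are mean and SD. Wnt4, Wnt7b, Wnt10a and Wnt7a are among the ligands that separate both ductal groups from hepatocytes, as do Wnt5a and Wnt9a. Wnt7b also separates the ductal groups. Wnt4 and, at low level, Wnt16 do so by a narrow gap.

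The endothelial ligand Wnt2 followed the libraries with endothelial transcripts. Wnt2 stood at 0.06, 0.38, 0.78, 0.69 and 0.21 RPKM in hepatocyte-derived libraries, at 1.36, 0.25, 1.05, 1.12 and 0.69 in cholangiocyte-derived libraries and at 2.27, 0.02, 0.09 and 0.19 in hepatocytes, so the highest value was in hepatocyte library 118, where the endothelial markers were highest, and the lowest ductal value in hepatocyte-derived library 219, where they were lowest. It was not called in any comparison (adjusted p = 0.900, 0.289 and 0.318), but with limma's library weights it was higher in hepatocyte-derived (0.54, adjusted p = 0.00872) and in cholangiocyte-derived ductal cells (0.85, 4.53e-04) than in hepatocytes. The part of endothelial cells in these values was not tested.

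Low ligands included Wnt16, at 1.03, 0.52, 0.71, 1.04 and 0.57 RPKM in hepatocyte-derived libraries, 0.02, 0.44, 0.09, 0.05 and 0.00 in cholangiocyte-derived libraries and 0.14, 0.07, 0.09 and 0.02 in hepatocytes. It stayed under the filter, and in a fit with no filter it was higher in hepatocyte-derived ductal cells than in either other group (0.67 ± 0.11 against cholangiocyte-derived ductal cells, adjusted p = 3.08e-04, and 0.71 ± 0.11 against hepatocytes, 8.50e-05). Wnt2b averaged 0.454, 0.296 and 0.118 RPKM in hepatocyte-derived ductal cells, cholangiocyte-derived ductal cells and hepatocytes. Wnt11 averaged 0.388, 0.428 and 0.055 and Wnt10b 0.310, 0.142 and 0.0125 RPKM. The other 7 ligands (Wnt1, Wnt3, Wnt3a, Wnt6, Wnt8a, Wnt8b and Wnt9b) did not exceed 0.35 RPKM in any library, and the pericentral endothelial ligand Wnt9b reached that value in cholangiocyte-derived library 220.

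Of the 10 Frizzled receptors, the cell surface receptors for these ligands, 9 rose in hepatocyte-derived cells over hepatocytes and 8 in cholangiocyte-derived cells, in comparisons where 66.2% and 67.1% of all genes were higher (43% and 46.8% after rescaling). Their summed level was 64.4 ± 3.88 RPKM in hepatocyte-derived, 85.2 ± 4.10 in cholangiocyte-derived cells and 26.8 ± 3.97 in hepatocytes. The directions of Fzd1 and Fzd8 in hepatocyte-derived cells turned under quantile normalization (-0.45 and -0.34), as did those of Fzd7 and Fzd8 in cholangiocyte-derived cells (-0.45 and -0.09).

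Fzd10 was found at more than 2 RPKM only in hepatocyte-derived ductal cells. Fzd10 (NM_175284, chromosome 5, 129106981 to 129109968, plus strand) stood at 8.54, 8.28, 3.92, 3.19 and 9.17 RPKM in hepatocyte-derived libraries, at 0.07, 1.24, 0.19, 0.20 and 0.18 in cholangiocyte-derived libraries and at 0.25, 0.21, 0.32 and 0.50 in hepatocytes. Every hepatocyte-derived library lay above all others, and cholangiocyte-derived library 219 was above the rest of its group. Without the hepatocyte-derived libraries, the group where it was high, Fzd10 would not have passed the filter. The log2 fold change was 2.43 ± 0.26 against cholangiocyte-derived ductal cells (adjusted p = 4.33e-06, and 1.53e-06 to 6.96e-04 over the alternatives) and 2.44 ± 0.28 against hepatocytes (1.37e-06). Between cholangiocyte-derived ductal cells and hepatocytes it was 0.01 ± 0.28 and was not called (0.982), turning to -0.16 after rescaling. The ratio of means was 17.6-fold over cholangiocyte-derived ductal cells and 20.7-fold over hepatocytes.

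Fzd7 was also higher in hepatocyte-derived cells than in either other group, but on a common base. It stood at 16.7, 13.6, 14.04, 12.9 and 13.1 RPKM in hepatocyte-derived libraries, at 8.17, 10.1, 8.75, 7.40 and 9.35 in cholangiocyte-derived libraries and at 4.34, 4.28, 7.43 and 7.21 in hepatocytes. The hepatocyte-derived libraries overlapped with neither group, and the log2 fold change was 0.63 ± 0.14 against cholangiocyte-derived ductal cells (adjusted p = 0.00248) and 1.18 ± 0.15 against hepatocytes (3.84e-06). Cholangiocyte-derived ductal cells were higher than hepatocytes (0.55 ± 0.15, 0.00327), with overlap, and this difference was -0.02 after rescaling.

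Fzd1 and Fzd9 had the opposite order between the ductal groups. Fzd1 stood at 4.76, 5.75, 4.44, 4.70 and 4.94 RPKM in hepatocyte-derived libraries, at 19.8, 15.7, 24.3, 14.3 and 17.4 in cholangiocyte-derived libraries and at 2.71, 2.98, 3.47 and 3.23 in hepatocytes, with no overlap between any groups. It was 3.72-fold higher in cholangiocyte-derived than in hepatocyte-derived ductal cells (log2 fold change of hepatocyte-derived over cholangiocyte-derived cells -1.68 ± 0.12, adjusted p = 8.04e-08). Fzd9 averaged 0.388 ± 0.149 RPKM in hepatocyte-derived, 2.47 ± 0.806 in cholangiocyte-derived cells and 0.0325 ± 0.0126 in hepatocytes (-1.30 ± 0.13 between the ductal groups, 2.26e-06). It passed the filter only through the cholangiocyte-derived libraries, the group where it was high.

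Fzd5 and Fzd6 rose in both ductal groups. Fzd5 averaged 11 ± 1.85, 17.7 ± 2.10 and 2.14 ± 0.701 RPKM in hepatocyte-derived ductal cells, cholangiocyte-derived ductal cells and hepatocytes, and Fzd6 10.9 ± 0.798, 15.5 ± 1.85 and 3.01 ± 0.841. Both were higher in hepatocyte-derived cells than in hepatocytes (1.95 ± 0.16 and 1.60 ± 0.14, adjusted p = 4.80e-08 and 6.30e-08) and lower than in cholangiocyte-derived cells (-0.64 ± 0.15 and -0.47 ± 0.13, 0.00395 and 0.0102). Fzd2, Fzd3 and Fzd8 were likewise lower in hepatocyte-derived than in cholangiocyte-derived cells (-0.50, -0.54 and -0.34). The calls of Fzd2 and Fzd3 were lost under quantile normalization (-0.13 and -0.17). Fzd4, a receptor of endothelial development, averaged 7.45 ± 2.17, 9.22 ± 0.757 and 8.17 ± 1.26 RPKM and was not called in any comparison (adjusted p = 0.418, 0.338 and 0.128). For hepatocyte-derived cells against hepatocytes this depends on the setting, as its adjusted p ran from 4.22e-05 to 0.813 over the alternatives in limma.

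Among the co-receptors, Ror1, an orphan-type receptor kinase that binds Wnt5a, showed the largest change. It stood at 15.9, 17.8, 17.8, 16.8 and 18.7 RPKM in hepatocyte-derived libraries, at 26.0, 21.1, 26.1, 19.9 and 32.5 in cholangiocyte-derived libraries and at 0.80, 0.92, 0.98 and 1.13 in hepatocytes. No groups overlapped, and the mean was 18.2-fold higher in hepatocyte-derived cells and 26.2-fold higher in cholangiocyte-derived cells than in hepatocytes (log2 fold changes 3.23 ± 0.12 and 3.72 ± 0.12, adjusted p = 1.90e-11 and 2.40e-12). Between the ductal groups it was -0.49 ± 0.11 (0.00326), and this call was lost when the 3 libraries with transcripts of other cells and hepatocyte-derived library 219 were left out (0.0534). Its relative Ror2 did not exceed 0.17 RPKM.

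Lrp6, a co-receptor of beta-catenin signalling, averaged 36.5 ± 2.87 RPKM in hepatocyte-derived, 33.3 ± 3.44 in cholangiocyte-derived cells and 16.6 ± 5.86 in hepatocytes, higher in both ductal groups than in hepatocytes (1.17 ± 0.20 and 1.04 ± 0.20, adjusted p = 9.08e-05 and 2.49e-04), with the call in cholangiocyte-derived cells lost after rescaling (0.42, 0.0757). Lrp5 stood at 27.7 to 34.2 RPKM in hepatocyte-derived libraries, at 45.4 to 52.4 in cholangiocyte-derived libraries and at 11.5, 26.9, 29.4 and 25.7 in hepatocytes. Hepatocyte library 118 had the lowest value. The difference between hepatocyte-derived cells and hepatocytes (0.47 ± 0.20, adjusted p = 0.0391) was 0.18 and still called without that library. It was lost without any 1 of hepatocyte-derived libraries 219, 225, 248 and 611 (0.0507 to 0.0757), without the 3 libraries that had the highest sums of other cells' markers (0.18, 0.0622), with the block (0.0840) and with only these 2 groups in the model (0.0867). It was 0.01 under quantile normalization and -0.15 after rescaling. Ryk, a receptor tyrosine kinase-like Wnt receptor, averaged 27.7 ± 0.951, 28.5 ± 2.11 and 13.1 ± 0.687 RPKM, with no difference called between the ductal groups (-0.04 ± 0.06, 0.697).

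**Figure D3:**
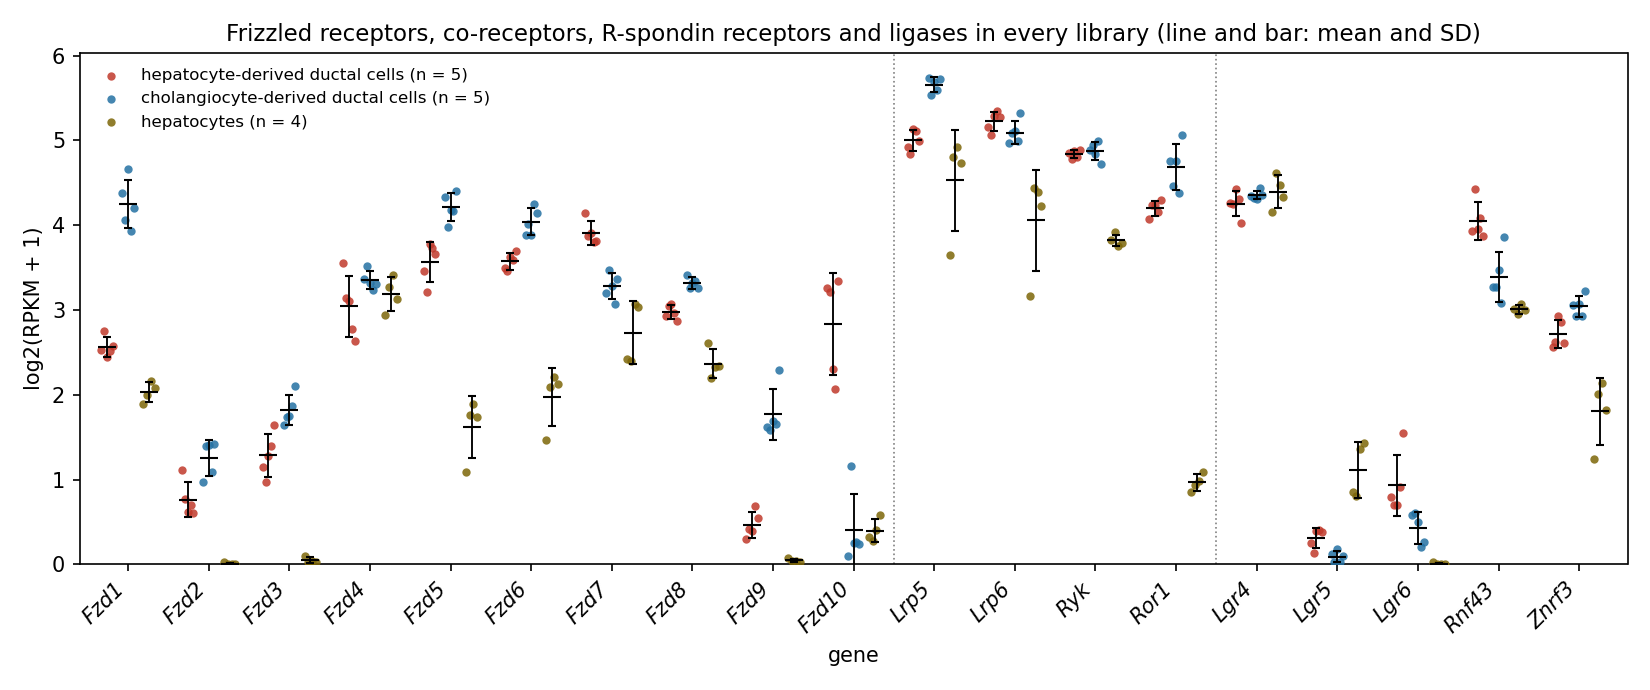
Levels of Frizzled receptors, of the co-receptors Lrp5, Lrp6, Ryk and Ror1, and of R-spondin receptors and Frizzled ligases, as log2(RPKM + 1) in every library, with the groups in the order of the legend from left to right. Lines and bars are mean and SD. Fzd10 rises in hepatocyte-derived ductal cells alone among the 3 groups, Fzd1 and Fzd9 are highest in cholangiocyte-derived ductal cells, and Lgr5 is highest in hepatocytes.

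On the R-spondin axis, the receptor Lgr4 was not called and Lgr5 was lower in ductal cells. Lgr4 averaged 18.2 ± 1.90 RPKM in hepatocyte-derived, 19.4 ± 0.700 in cholangiocyte-derived cells and 20.2 ± 2.86 in hepatocytes and was not called in any comparison (adjusted p = 0.180, 0.671 and 0.440). It was called lower in both ductal groups than in hepatocytes after rescaling (-0.77 and -0.66). Lgr5, a stem cell receptor and pericentral gene, stood at 0.19, 0.10, 0.31, 0.32 and 0.30 RPKM in hepatocyte-derived libraries, at 0.09, 0.02, 0.13, 0.02 and 0.07 in cholangiocyte-derived libraries and at 0.80, 0.75, 1.57 and 1.70 in hepatocytes. Every hepatocyte library lay above every ductal one, and in the fit with no filter Lgr5 was lower in both ductal groups (-0.80 ± 0.12 and -1.02 ± 0.12, adjusted p = 4.20e-05 and 3.42e-06).

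Lgr6 had the reverse pattern at low level, with 0.74, 0.62, 0.62, 0.88 and 1.93 RPKM in hepatocyte-derived libraries, 0.50, 0.52, 0.41, 0.15 and 0.20 in cholangiocyte-derived libraries and 0.02, 0.00, 0.00 and 0.00 in hepatocytes. In the fit with no filter it was higher in hepatocyte-derived than in cholangiocyte-derived cells (0.50 ± 0.14, adjusted p = 0.0169). The ligase Rnf43, itself a Wnt target that dampens the pathway, stood at 14.2, 20.5, 14.6, 16.03 and 13.6 RPKM in hepatocyte-derived libraries, at 8.69, 8.68, 10.1, 7.44 and 13.5 in cholangiocyte-derived libraries and at 7.04, 6.74, 7.42 and 6.99 in hepatocytes. Hepatocyte-derived cells were higher than cholangiocyte-derived cells (0.66 ± 0.14, adjusted p = 0.00139) and hepatocytes (1.05 ± 0.14, 9.41e-06), without overlap, but the difference from hepatocytes was not called under quantile normalization (0.26, 0.168). The difference of cholangiocyte-derived cells from hepatocytes (0.39 ± 0.14, 0.0222) was lost without cholangiocyte-derived library 611 (0.0512) or hepatocyte library 225 (0.0505), and was -0.19 after rescaling and -0.54 under quantile normalization. Its partner Znrf3 averaged 5.61 ± 0.754, 7.26 ± 0.714 and 2.59 ± 0.894 RPKM in the 3 groups and was higher in both ductal groups than in hepatocytes (0.91 ± 0.15 and 1.24 ± 0.15, 7.26e-05 and 2.99e-06), turning to -0.03 in hepatocyte-derived cells under quantile normalization.

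The R-spondin Rspo3, an endothelial and stromal product, stood at 0.05, 0.19, 0.46, 0.23 and 0.41 RPKM in hepatocyte-derived libraries, at 1.47, 0.52, 1.95, 0.51 and 0.34 in cholangiocyte-derived libraries and at 1.40, 0.02, 0.06 and 0.15 in hepatocytes. Its 3 highest values were in the 3 libraries with the highest endothelial and stromal marker sums. The same held for Nkd1, an intracellular inhibitor and target of the pathway, with 1.34 and 2.07 RPKM in cholangiocyte-derived libraries 118 and 220, 1.00 in hepatocyte library 118 and at most 0.34 elsewhere. In the fit with no filter Nkd1 was lower in hepatocyte-derived than in cholangiocyte-derived cells (-0.68 ± 0.24, adjusted p = 0.0486). The part of other cells in these values was not tested. Rspo1 did not exceed 0.34 RPKM.

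**Figure D4:**
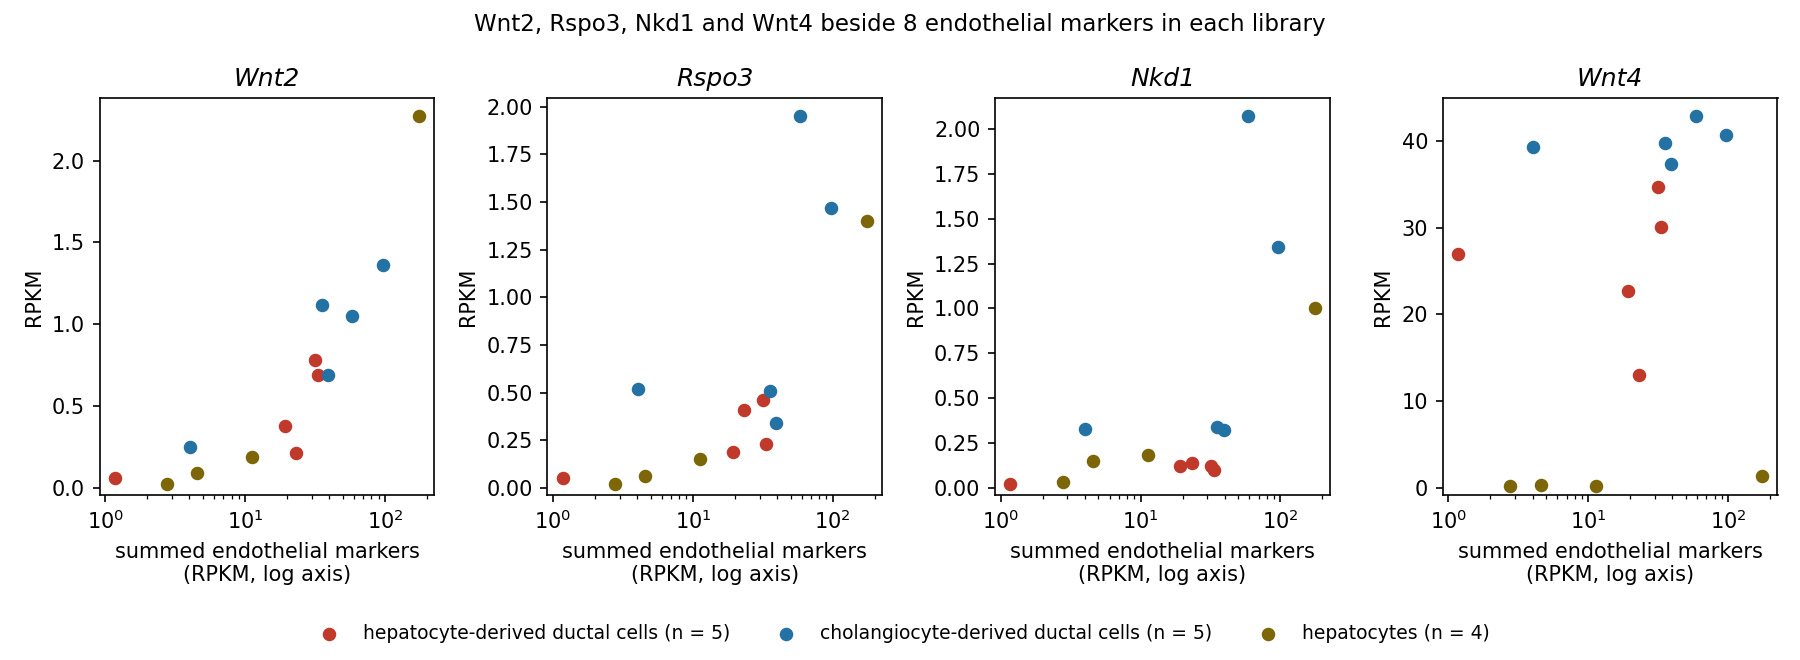
Levels of Wnt2, Rspo3, Nkd1 and, for contrast, Wnt4 in RPKM (linear axis) against the summed RPKM of 8 endothelial markers (log axis), with 1 point per library. The 3 highest values of Rspo3 and of Nkd1 lie in the libraries with marker sums of 58.5 to 175.6 RPKM, and the 2 highest of Wnt2 in those with 96.9 and 175.6, whereas Wnt4 stays at or above 13.0 RPKM in ductal libraries with sums as low as 1.17 and at 1.32 RPKM in hepatocyte library 118.

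Inside the cell, beta-catenin itself (Ctnnb1) was the most abundant member. It stood at 510.9, 479, 477, 472 and 496 RPKM in hepatocyte-derived libraries, at 693, 730.0, 701, 774 and 661 in cholangiocyte-derived libraries and at 157, 199, 195 and 182 in hepatocytes, with no overlap. The log2 fold change was 1.41 ± 0.09 in hepatocyte-derived and 1.95 ± 0.09 in cholangiocyte-derived ductal cells against hepatocytes (adjusted p = 2.19e-09 and 4.37e-11), and -0.55 ± 0.08 between the ductal groups (9.21e-05). Beta-catenin also joins cadherins at cell contacts, and its transcript level does not measure signalling. Of the destruction complex, Axin1 averaged 26.3 ± 1.32, 30.9 ± 0.998 and 11.7 ± 0.792 RPKM and Apc 13.1 ± 1.25, 14.2 ± 0.871 and 5.76 ± 2.07 RPKM in hepatocyte-derived ductal cells, cholangiocyte-derived ductal cells and hepatocytes, both higher in ductal cells, although neither call of Apc held under quantile normalization (0.28 and 0.33, adjusted p = 0.161 and 0.0938). The small difference of Axin1 between the ductal groups (-0.22 ± 0.06, adjusted p = 0.00828) was lost with the block (0.0770).

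Of the transcription factors, Tcf7l1, which represses many targets when beta-catenin is absent, rose most. It stood at 15.9, 16.7, 17.1, 17.0 and 12.1 RPKM in hepatocyte-derived libraries, at 17.6, 16.6, 17.3, 15.7 and 16.5 in cholangiocyte-derived libraries and at 2.09, 1.82, 1.97 and 1.29 in hepatocytes. Both ductal groups lay far above hepatocytes (2.58 ± 0.11 and 2.67 ± 0.11, adjusted p = 6.30e-11 and 1.98e-11) and the difference between them was not called (-0.09 ± 0.10, 0.541). Tcf7l2, the main Tcf of adult liver, averaged 7.60 ± 0.778, 12.3 ± 1.61 and 2.98 ± 0.763 RPKM (-0.62 ± 0.12 between the ductal groups, 9.40e-04). Tcf7 averaged 6.05 ± 0.878, 6.69 ± 0.976 and 2.74 ± 0.952 RPKM, and its rise in both ductal groups became -0.03 and -0.06 under quantile normalization. Lef1 did not exceed 0.05 RPKM in any library.

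Of the named target genes, Notum and Tbx3 were lower in ductal cells. Notum, a secreted enzyme that removes the lipid from Wnt proteins and a pericentral gene of hepatocytes (NM_175263, chromosome 11, 120515103 to 120522151, minus strand), stood at 0.73, 1.38, 0.93, 0.89 and 0.58 RPKM in hepatocyte-derived libraries, at 1.07, 0.40, 0.64, 0.49 and 0.48 in cholangiocyte-derived libraries and at 10.8, 8.06, 11.1 and 15.5 in hepatocytes. Its mean was 12.6-fold higher in hepatocytes than in hepatocyte-derived cells and 18.4-fold higher than in cholangiocyte-derived cells (log2 fold changes of the ductal groups over hepatocytes -2.68 ± 0.17 and -2.91 ± 0.17, adjusted p = 3.16e-09 and 7.53e-10). Tbx3, a transcription factor of liver development, fell to 0.438 ± 0.170 RPKM in hepatocyte-derived and 0.134 ± 0.0658 in cholangiocyte-derived ductal cells, against 2.41 ± 0.943 in hepatocytes (-1.21 ± 0.16 and -1.55 ± 0.16, adjusted p = 7.07e-06 and 4.34e-07). Of the 36 members that passed the filter, these 2 were called lower in both comparisons with hepatocytes. Tbx3 passed only through the 4 hepatocyte libraries, the group where it was high, and Notum would not have passed without them. Lgr5, also highest in hepatocytes, did not pass, so this count depends on the filter.

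Axin2, a widely used reporter of beta-catenin activity, stood at 1.33, 1.42, 1.16, 0.87 and 1.14 RPKM in hepatocyte-derived libraries, at 1.18, 0.81, 1.08, 0.94 and 1.45 in cholangiocyte-derived libraries and at 0.87, 0.99, 2.39 and 2.97 in hepatocytes. The hepatocytes divided into a lower and a higher pair and all groups overlapped, and no difference was called (-0.29 ± 0.20 and -0.35 ± 0.20 against hepatocytes, adjusted p = 0.191 and 0.110). Without hepatocyte library 118 it was called lower in both ductal groups (-0.46 and -0.52, 0.0353 and 0.0181), as it was after rescaling (-0.69 and -0.74). Sp5, whose promoter above holds 2 of the words searched, averaged 0.0440 RPKM in hepatocyte-derived, 0.342 in cholangiocyte-derived cells and 0.248 in hepatocytes. In the fit with no filter it was lower in hepatocyte-derived than in cholangiocyte-derived cells (-0.36 ± 0.06, adjusted p = 2.76e-04), at an estimated 0 to 5 reads in hepatocyte-derived and 10 to 22 in cholangiocyte-derived libraries.

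The Dkk and Sfrp inhibitors among the members did not exceed 8.70 RPKM in any library. Dkk3, a divergent member of the Dickkopf family, stood at 1.92, 1.59, 1.40, 1.37 and 3.30 RPKM in hepatocyte-derived libraries, at 8.69, 6.69, 8.70, 5.80 and 4.86 in cholangiocyte-derived libraries and at 1.78, 0.02, 0.02 and 0.08 in hepatocytes. It was lower in hepatocyte-derived than in cholangiocyte-derived cells (-1.46 ± 0.27, adjusted p = 6.34e-04) and higher than in hepatocytes (1.10 ± 0.29, 0.00275), whose mean was 0.475 with and 0.0400 RPKM without library 118. Under quantile normalization the difference from hepatocytes was not called (0.59, 0.134). Sfrp1, a decoy that binds Wnt proteins, stood at 1.38, 0.83, 1.5, 1.84 and 1.55 RPKM in hepatocyte-derived libraries, at 1.24, 0.85, 1.08, 0.36 and 0.38 in cholangiocyte-derived libraries and at 0.16, 0.02, 0.02 and 0.02 in hepatocytes. Its difference between the ductal groups (0.46 ± 0.16, adjusted p = 0.0333) was lost without any 1 of hepatocyte-derived libraries 219, 225, 248 and 611 or cholangiocyte-derived libraries 225 and 611 (0.0577 to 0.0870). Sfrp5 did not exceed 0.25 RPKM, and Dkk1 was listed at 0 in every library.

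**Figure D5:**
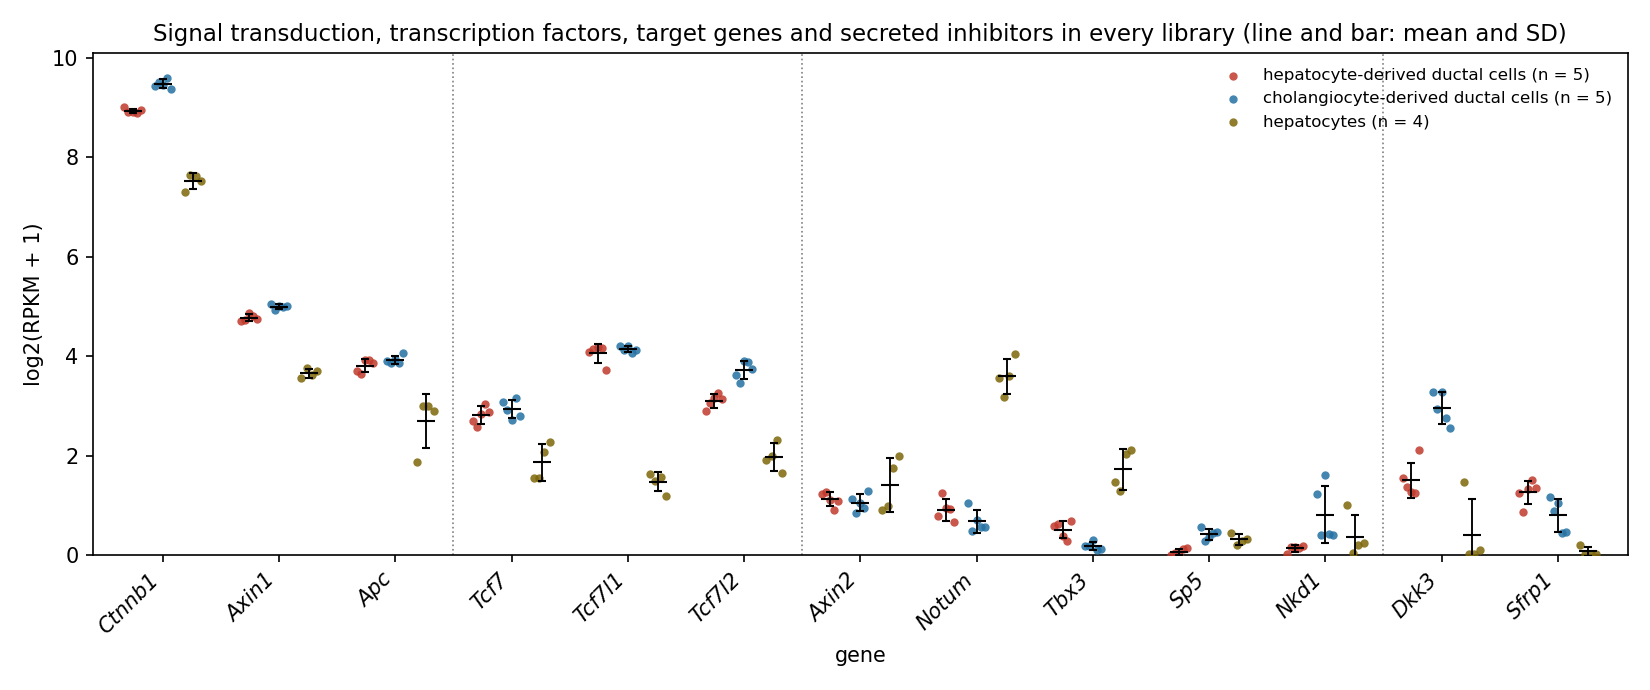
Levels of beta-catenin, Axin1 and Apc, of the Tcf factors, of target genes and of the secreted inhibitors Dkk3 and Sfrp1, as log2(RPKM + 1) in every library, with the groups in the order of the legend from left to right. Lines and bars are mean and SD. Ctnnb1 and Tcf7l1 are higher and Notum and Tbx3 lower in both ductal groups than in hepatocytes, while Axin2 overlaps in all groups.

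Across the 36 tested members, the mean of hepatocyte-derived ductal cells lay between those of cholangiocyte-derived ductal cells and hepatocytes for 27, above both for 5 (Fzd10, Fzd7, Lrp6, Rnf43 and Sfrp1) and below both for 4 (Fzd4, Lgr4, Wnt2 and Wnt5b). The shares of all tested genes in these positions were not computed, so the counts cannot be read as particular to the members.

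Other genes of the pathway were counted from 7 lists, in which 88 genes were tested. Of these, 65 were higher and 15 lower in hepatocyte-derived cells than in hepatocytes, against 66.2% and 14.8% of all genes. In cholangiocyte-derived ductal cells 64 were higher and 17 lower than in hepatocytes, against 67.1% and 17.4% of all genes. Between the ductal groups 15 were higher and 27 lower in hepatocyte-derived cells, against 15.1% and 21% of all genes. The same shares apply to every list below. List counts after rescaling, where 43% of all genes were higher in hepatocyte-derived cells than in hepatocytes, are not given.

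For Wnt secretion, 2 of 4 genes were higher and 1 lower in hepatocyte-derived cells than in hepatocytes. Porcn, which attaches the lipid to Wnt proteins, averaged 7.07 ± 0.753 RPKM in hepatocyte-derived cells and 2.03 ± 0.416 in hepatocytes. Wls, the carrier that brings Wnt proteins to the cell surface, averaged 19.2 ± 1.42 RPKM in hepatocyte-derived, 72.9 ± 10.02 in cholangiocyte-derived cells and 2.25 ± 3.31 in hepatocytes, and was lower in hepatocyte-derived than in cholangiocyte-derived cells (-1.86 ± 0.36, adjusted p = 9.26e-04). Tmed5, a secretory pathway protein, was lower than in hepatocytes (-0.96 ± 0.12, 4.28e-06) and higher than in cholangiocyte-derived cells (0.53 ± 0.11, 0.00205).

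Of 5 tested secreted regulators, all 5 were higher in hepatocyte-derived cells than in hepatocytes, among them the glypicans Gpc4 (60.1 ± 8.26 RPKM in hepatocyte-derived cells and 30.04 ± 5.05 in hepatocytes) and Gpc3 (2.93 ± 1.11 and 0.238 ± 0.206) and the decoy Sfrp4 (1.34 ± 0.331 and 0.108 ± 0.0888). Against cholangiocyte-derived cells 2 were higher and 2 lower, with Dkk2, a Dickkopf inhibitor, at 0.550 ± 0.380 RPKM in hepatocyte-derived and 6.27 ± 1.25 in cholangiocyte-derived cells (-2.24 ± 0.15, adjusted p = 5.05e-08), and Gpc4 0.89 ± 0.12 higher (3.46e-05).

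Of 21 genes of the destruction complex and Dishevelled group, 19 were higher and 1 lower in hepatocyte-derived cells than in hepatocytes, against 66.2% and 14.8% of all genes. The casein kinase Csnk1e averaged 43.9 ± 3.47 RPKM in hepatocyte-derived cells and 5.61 ± 0.622 in hepatocytes (2.77 ± 0.08, adjusted p = 5.02e-12), and Csnk1d and the Axin-modifying enzyme Tnks2 were also higher (1.17 ± 0.06 and 1.40 ± 0.08). Of the same 21 genes, 2 were higher and 4 lower in hepatocyte-derived than in cholangiocyte-derived cells, including Apc2 (-0.46 ± 0.08) and the Gsk3 inhibitor Frat2 (-0.85 ± 0.17). Of 17 nuclear cofactors and repressors, 14 were higher and 1 lower than in hepatocytes, led by Pygo2, a beta-catenin coactivator (1.85 ± 0.08), and the corepressors Ctbp1 (1.53 ± 0.07) and Tle3 (2.92 ± 0.14). In cells of hepatocyte origin against cells of cholangiocyte origin 3 were higher and 3 lower. Ctbp2 was lower in hepatocyte-derived than in cholangiocyte-derived cells (-1.44 ± 0.16, 5.06e-06), and Hnf4a, the hepatocyte regulator that competes with Tcf factors at some sites, was higher (1.13 ± 0.17, 8.77e-05).

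Of 13 planar polarity genes, 12 were higher and none lower in hepatocyte-derived cells than in hepatocytes, against 66.2% and 14.8% of all genes. The higher genes included Vangl2 (2.61 ± 0.12), Celsr1 (2.99 ± 0.14) and Celsr2 (1.83 ± 0.10), membrane proteins that set cell orientation within epithelia. Set against each other, the ductal groups differed in 1 gene that was higher and 5 that were lower in hepatocyte-derived cells, against 15.1% and 21% of all genes. Ptk7, a Wnt co-receptor of the polarity branch, averaged 1.21 ± 0.329 RPKM in hepatocyte-derived and 39.4 ± 2.38 in cholangiocyte-derived ductal cells, against 0.243 ± 0.316 in hepatocytes (-4.20 ± 0.14 between the ductal groups, adjusted p = 8.48e-11). Celsr2 was also lower (-1.08 ± 0.09, 3.99e-07).

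Target genes divided by list. Of 14 general Wnt targets, 13 were higher and none lower in hepatocyte-derived cells than in hepatocytes, against 66.2% and 14.8% of all genes. Sox4 stood at 166 ± 14.7 RPKM in hepatocyte-derived cells and 5.00 ± 1.60 in hepatocytes, Cd44 at 213 ± 44.3 and 11.8 ± 2.89, and Tnfrsf19 at 26.9 ± 3.59 and 2.90 ± 0.868. These genes also respond to other signals. Of 14 pericentral beta-catenin targets of hepatocytes, none was higher and 12 were lower, with Gulo, an enzyme of vitamin C synthesis, at 21.2 ± 3.72 and 162.8 ± 21.7 RPKM, the nuclear receptor Nr1i3 at 1.44 ± 0.501 and 47.5 ± 15.2, and the ammonium transporter Rhbg at 0.800 ± 0.422 and 9.57 ± 2.81 in hepatocyte-derived ductal cells and hepatocytes. Many genes of this list are also general hepatocyte genes.

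Between the ductal groups, 1 general target was higher and 8 were lower in hepatocyte-derived cells, against 15.1% and 21% of all genes. The Eph receptors Ephb3 (0.230 ± 0.101 RPKM in hepatocyte-derived and 5.11 ± 0.775 in cholangiocyte-derived ductal cells, -2.30 ± 0.10, adjusted p = 8.31e-10) and Ephb2 (0.680 ± 0.0636 and 5.46 ± 0.941, -1.93 ± 0.12, 2.57e-08) led these. Of the pericentral genes 5 were higher and 4 lower, with Slc13a3, a dicarboxylate transporter, and Cyp27a1, a bile acid enzyme, higher in hepatocyte-derived cells (1.84 ± 0.20 and 1.81 ± 0.21, 4.87e-06 and 8.78e-06).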

How the data were processed

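The authors deposited a table of RPKM values with 26005 transcript rows and 14 library columns. The submitters' processing notes name the build mm9, the aligner Bowtie 0.12.7 and CASAVA. What counted the reads is not given in the sources used here. Libraries were made from total RNA with a kit that does not mark strand, so overlapping antisense genes cannot be told apart. For 12 columns the name matched 1 sample title. The other 2 carry the number 220 where titles carry 120, and were matched to their group only. The series text gives 3 hepatocyte samples, and 4 were used.

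Of several rows of a symbol, the one with the highest mean was kept. The test was limma 3.58.1 (R 4.3.3) on log2(RPKM + 1), with a mean-variance trend and all 14 libraries in 1 model of 3 groups, for 12638 symbols that reached 1 RPKM in 4 or more libraries. Tests were two-sided and Benjamini-Hochberg adjusted over all tested symbols, and calls were made at an adjusted p under 0.05. The scale understates changes of low genes, while a ratio compares mean RPKM. Alternatives were other scalings, pseudocounts, filters and library weights, a replicate block, only the groups compared, and leaving out libraries. The steps were tested on simulated data. Python 3.11.15 with pandas 2.3.3 and matplotlib 3.10.9 made tables and plots. Positions are in mm9, counted from 1.

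RPKM keeps no read totals. Depth was estimated from the steps between low values over 18 settings, with transcript lengths from GENCODE vM21. A first setting gave an implausible depth for 1 library, and the grid was added after that was seen. Of 252 estimates, all but 2 lay between 17.0 and 29.4 megareads, and those 2 were 51.8 and 58.6, and library medians were 19.5 to 26.8. The choice of rows assumed 20 megareads, so these are rough values. Read numbers in the text rest on them.

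The members and gene lists were chosen with earlier results of these data known. All members are accounted for, and those under the filter are named where a group mean reached 0.3 RPKM. Of the other lists, up to 3 called genes with the smallest adjusted p against hepatocytes and up to 2 between the ductal groups are named. Of the list symbols, Gpr177, Amer1, Draxin and Prickle4 were not matched.

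Replicate numbers in the titles were checked by correlating deviations from group means. Same-numbered libraries correlated at 0.797, 0.212 and 0.424 between the ductal groups (numbers 219, 225 and 611). Between cholangiocyte-derived ductal cells and hepatocytes the values were 0.512, 0.133 and 0.225 (118, 225 and 611). These pass a rule that every same-number value exceed 0.1. The rule cannot show pairing, because some libraries of different number correlated as highly or nearly so. Examples were 219 with 225 (0.458) and 248 (0.417) between cholangiocyte-derived ductal cells and hepatocytes, and 225 with 118 (0.202) between the ductal groups. Between hepatocyte-derived ductal cells and hepatocytes same-number values were 0.129, 0.021 and 0.193 (225, 248 and 611), which do not pass the rule. The reported fit used no pairing. The block was an alternative applied to every comparison, also where the rule was not met.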

Additional observations from a re-analysis of the deposited data

Results flagged for a closer look

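A gap test within each group (Dixon, at the 95% level) over the 85 combinations of member and group with a mean of at least 1 RPKM set 5 values apart from the rest of their group, and chance gives about 1 in 20. Library 611 gave 4 of these. In hepatocyte-derived ductal cells Dkk3 was highest there, at 3.30 RPKM against 1.37 to 1.92 in the others, and Tcf7l1 was lowest, at 12.1 against 15.9 to 17.1. In cholangiocyte-derived ductal cells Fzd9 was highest there, at 3.90 RPKM against 1.99 to 2.24, and Wnt9a was lowest, at 3.03 against 4.84 to 5.31. In hepatocytes Apc was lowest in library 118, at 2.67 RPKM against 6.49 to 6.95, the library with the highest sums of endothelial and macrophage markers. The part of those cells was not tested.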

How the results depend on the processing

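Of 2829 values computed under 27 other settings, 2666 kept their direction and side of the threshold, 79 lost a call, 37 gained one and 47 changed sign. Of 210 values under another scaling 50 changed, against 113 of 2619 under the other settings. The cause was not tested.

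Members called higher in hepatocyte-derived cells than in hepatocytes numbered 19 under quantile normalization. Those called lower numbered 7 after rescaling, 8 under quantile normalization, 4 with no filter, 1 with a filter of 5 RPKM and 5 with library weights. Cholangiocyte-derived ductal cells had 7 lower members after rescaling, 9 under quantile normalization, and 1 each with a filter of 5 RPKM and without hepatocyte library 118, cholangiocyte-derived libraries 118 and 220 (the 3 libraries with the highest marker sums of other cells) and hepatocyte-derived library 219. Between the ductal groups 8 were higher with no filter and 2 with a filter of 5 RPKM. Other pathway genes called lower than in hepatocytes numbered 23 in hepatocyte-derived and 26 in cholangiocyte-derived ductal cells under quantile normalization, and 9 were higher between the ductal groups without the 3 libraries and 219.

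Leaving out 1 library at a time gave 28 to 29 members higher and 1 to 3 lower for hepatocyte-derived ductal cells against hepatocytes, 27 to 28 and 1 to 2 for cholangiocyte-derived ductal cells, and 3 to 4 and 15 to 19 between the ductal groups. For other pathway genes the ranges were 59 to 64 and 15 to 16, 62 to 65 and 16 to 18, and 11 to 17 and 23 to 32.

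Signs turned in hepatocyte-derived ductal cells against hepatocytes for Fzd1 (-0.45), Fzd8 (-0.34), Tcf7 (-0.03) and Znrf3 (-0.03) under quantile normalization and for Lrp5 (-0.15) after rescaling. Wnt2 was 0.32 with a pseudocount of 0.1, 0.54 with weights and -0.21 to 0.05 without 1 library. Wnt5b was 0.02 with weights, 0.12 without the 3 libraries, 0.04 without the 3 and 219, and -0.21 to 0.12 without 1 library. In cholangiocyte-derived ductal cells against hepatocytes, rescaling and quantile normalization gave -0.16 and -0.82 for Fzd10, -0.42 and -0.75 for Fzd4, -0.02 and -0.45 for Fzd7, -0.19 and -0.54 for Rnf43, and -0.53 and -1.06 for Wnt5b. Quantile normalization gave -0.09 for Fzd8, -0.06 for Tcf7 and -0.49 for Wnt2. Fzd10 was -0.20 with a pseudocount of 0.1, -0.04 with weights and -0.18 to 0.08 without 1 library, Lgr4 was -0.12 to 0.03 without 1 library, and Wnt5b was -0.00 with a pseudocount of 5 and -0.10 to 0.23 without 1 library. Between the ductal groups Tcf7 was 0.03 under quantile normalization and 0.00 with weights, and Wnt5b was 0.07 under quantile normalization. Further calls lost with scaling were those of Fzd1 and Fzd8 in hepatocyte-derived ductal cells after rescaling (0.01 and 0.06) and, under quantile normalization, Fzd9 and Tcf7l2 in hepatocyte-derived (0.23 and 0.14) and Znrf3 in cholangiocyte-derived ductal cells (0.15), all against hepatocytes.

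With the sample number as a replicate block on the 12 libraries whose number is in the titles, Fzd10 (-0.23) and Wnt5b (-0.06) turned in cholangiocyte-derived ductal cells against hepatocytes, and Axin2 (-0.06), Lrp6 (-0.03) and Wnt5b (0.02) between the ductal groups. The same 12 libraries without the block, a setting chosen after seeing the data, gave -0.00 for Wnt5b in cholangiocyte-derived ductal cells against hepatocytes. The block and no-block fits of these libraries differed in 1 call, Lrp5 between the ductal groups (-0.79, adjusted p = 0.0219 with the block in limma, and -0.61, 0.0621 without). The calls of Wnt4, Wnt10a, Wnt9a and Axin1 between the ductal groups that were lost with the block were also lost without it on these 12 libraries (adjusted p = 0.0501 to 0.126), where fewer samples entered. Values under about 0.3 RPKM rest on few reads.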
